A study of Ictidomys tridecemlineatus with 31 samples.

Results

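The kidneys of 20 hibernating 13-lined ground squirrels were compared, as a group, with those of 9 squirrels from the active part of the year. The hibernation season was made up of 4 states, with 5 animals each, and they were chosen by their labels. Interbout aroused animals (IBA) had recently rewarmed, entrance animals (Ent) were cooling into torpor, and early arousing (EAr) and later arousing (LAr) animals were rewarming from it. The active season was made up of 4 summer active animals (SA), which were fattening, and 5 spring dark animals (SpD), which were still kept in the dark hibernaculum after their last torpor bout. Winter animals therefore ranged from warm to cold, while both active groups held a steady, warm body temperature. The 11 females and 9 males of winter, and the 5 females and 4 males of the active season, were all untreated squirrels that carried implanted temperature devices. These 29 animals are all but 2 of the 31 in the table, since K113 (LAr) and K137 (SA) were left out of the comparison, as they were in the study's own analysis.

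RNA from a piece of each kidney was sequenced, and 12863 genes were measured as batch-corrected regularized log (rlog) values. An rlog value is a library-size normalized read count on a log2 scale, so a difference of 1 is a doubling, although small counts are pulled toward the gene's mean. Read depth cannot be recovered from such values and is unknown, so the precision given is that of the spread between animals, whose median SD was 0.16 per gene after fitting. SA, EAr, and LAr came from experiment 2 only. Experiment 1 supplied 6 winter and 3 active animals, from IBA, Ent, and SpD, and experiment 2, made with another library kit, supplied 14 and 6. Each sample was 1 animal, from a breeding colony or a commercial supplier, and the blood had been flushed from the tissue before dissection.

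Hibernators of this kind stop eating for months, live on stored fat, and alternate days of torpor near ambient temperature with short bouts of rewarming. The kidney filters little or nothing at low body temperature and resumes filtering in each arousal. Its proximal tubule, the bulk of the cortex, reclaims filtered sugars, amino acids, and phosphate, burns fatty acids to pay for this transport, makes glucose, and breaks down amino acids. A gene that is shifted in a warm IBA animal as well as in cold EAr animals is shifted whatever the body temperature at sampling, and such genes were sought here.

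The tissue had the makeup of kidney. All 6 proximal tubule markers were in the table, with a mean level over the list of 14.05 to 15.17 in winter animals and 13.51 to 15.42 in active animals. No marker of the adrenal gland or of neutrophils was in the table. Of 8 adipose tissue markers 1 was measured, and it varied widely, at 6.81 to 12.24 in winter and 7.09 to 10.54 in active animals. The part of fat tissue in the results was not tested. K130, a SpD male, stood apart from the other active animals, with the lowest proximal tubule mean (13.51, against 14.37 or more in the other 8) and the highest means for principal cells (12.86) and inner medulla (13.08). K130 was kept in the comparison, as in the study, and main results that change without it are given both ways. Most endothelial markers were lower in winter. Of 8 measured, 1 passed the season threshold (Plvap, the diaphragm protein of fenestrated capillaries, at -0.49 ± 0.09, SE) and 6 were lower at q under 0.05. Plvap lost its call without K138, K139, or K141. It also lost it with each animal given equal weight, in a fit of season that had no terms for the states. The list mean ran from 10.49 to 11.24 in winter and from 10.63 to 11.78 in active animals. Of 8 stromal and smooth muscle markers, 4 were lower at q under 0.05, and 1 of 5 macrophage markers. For principal cells this was 3 of 5 and for the proximal tubule 1 of 6, against 16.8% of all genes lower at that threshold. In bulk tissue, fewer cells of a type and less RNA per cell cannot be told apart, and the part of these cells in the results was not tested.

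Season left a broad mark on the kidney, with genes called in both directions and more of the changes of at least 2-fold on the lower side. In limma, with each state given equal weight and terms for sex and experiment, 1251 genes (9.73%) differed between the seasons at a Benjamini-Hochberg q under 0.001. Winter levels were higher for 570 genes (4.43%) and lower for 681 genes (5.29%). This balance turned around when all animals were given the same median (642 higher, 615 lower), in experiment 2 alone (630 and 608), and without K8 (783 and 775), so neither direction can be called the more frequent. Most differences were small. The median change was 1.23-fold among the higher genes and 1.34-fold among the lower ones, and 15 genes were at least 2-fold higher (0.117%) against 66 at least 2-fold lower (0.513%). The median difference over all 12863 genes was 0.00024, and the animals' own medians averaged 9.80 in winter and 9.81 in the active season.

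A stricter count asked whether the shift was present in each winter state. All 4 states passed q under 0.05 in the direction of the season difference for 191 of the 570 higher genes (1.48% of all genes) and for 245 of the 681 lower genes (1.9%). Together these 436 genes were 3.39% of all genes, while each state taken alone differed from the active states at that threshold in 19.9% (IBA), 13.3% (Ent), 24.2% (EAr), and 27.3% (LAr) of all genes. Another 302 higher and 344 lower genes passed in 3 states. In 425 of these 646 genes (65.8%) the state that did not pass was IBA, the warm state, followed by Ent (136), LAr (48), and EAr (37). The other requirement was a difference from SA and from SpD separately, which left 159 genes higher (1.24%) and 186 lower (1.45%), or 345 in all (2.68%). These 345 are called winter-high and winter-low genes below. Their median difference was 0.33 for the winter-high and 0.60 for the winter-low genes, and 7 and 35 of them were at least 2-fold. Without K130 the counts were 531 higher and 771 lower by season, and 154 winter-high and 266 winter-low. An F test among the 4 winter states, which passed q under 0.05 for 16.1% of all genes, passed for 8 of the 159 and 22 of the 186. SA and SpD differed in 5 and 22 of them, against 10.5% of all genes. The 345 genes were chosen on the same animals for a shift in each state, which favors little spread within a season. Their counts in both tests are therefore a description only.

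The deposited values, already corrected for experiment by the authors' model, were also compared with no further fit. In them 25 genes were higher in each of the 20 winter animals than in any of the 9 active animals (0.194%). Another 14 were lower in each (0.109%). All but 1 of these 39 were winter-high or winter-low genes, and 21 of the higher and 10 of the lower ones carry a gene symbol. Neither the F test among winter states nor the test of SA against SpD was passed by any of these 31. Their choice on the same animals favors little spread within a season, so this describes them and is no independent check. The animals that had been left out offer a further look. K113 lay beyond every active animal, on the winter side, for 22 of the 24 winter-high genes of this kind and all 14 winter-low genes. K137 lay beyond every winter animal, on the active side, for 20 of the 24 and 7 of the 14. It lay within the active range or beyond it for only 14 of the 24 and 6 of the 14. The same counts were not made over all genes, so those for K113 and K137 are a description only.

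The largest of these increases was in Kcnf1, a modifier subunit of voltage-gated potassium channels. Its rlog values were 6.93 to 8.77 in winter animals, with a median of 7.95, and 5.71 to 6.68 in active animals, with a median of 5.99. No winter animal reached down to the active range, and the lowest was an Ent animal. Kcnf1 was 1.94 ± 0.15 (SE) higher in winter (q = 5.3e-09), a 3.84-fold difference, with 2.08 in IBA, 1.54 in Ent, 2.13 in EAr, and 2.01 in LAr. State means were 6.05 ± 0.30 (SD, n = 4) in SA and 6.12 ± 0.38 (n = 5) in SpD, so the active states were alike within their spread.

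**Figure D1:**
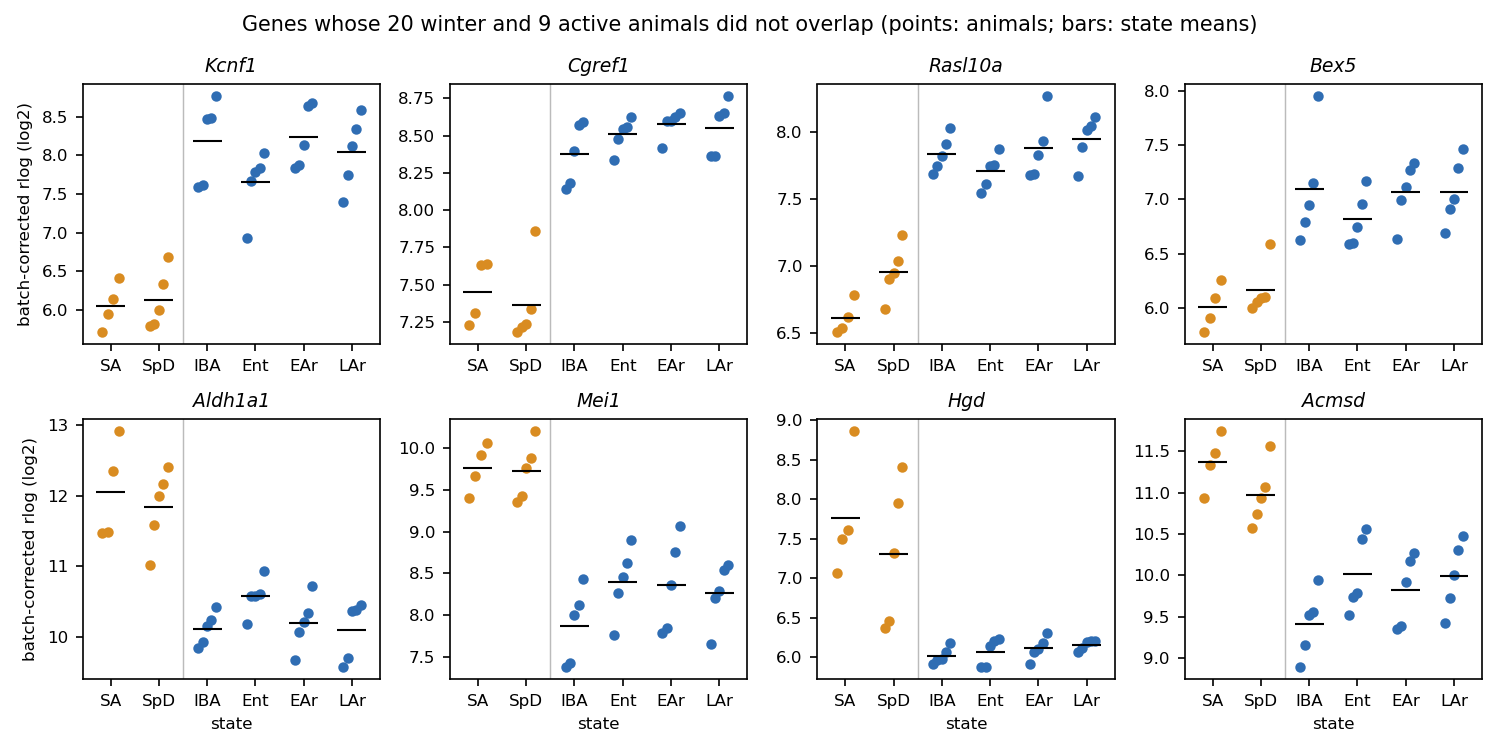
Batch-corrected rlog values (log2, vertical axis, which does not start at 0) in each of 29 animals by state (horizontal axis) for 8 genes, with active animals in orange, winter animals in blue, and black bars for state means. In each panel the 20 winter animals lie wholly above (top row) or wholly below (bottom row) the 9 active animals, and for Hgd the winter animals span 5.87 to 6.30 while active animals span 6.37 to 8.86.

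Cgref1, a secreted calcium-binding protein gene, had the lowest q of all genes (9.6e-10). It ran from 8.14 to 8.76 in winter, with a median of 8.56, and from 7.18 to 7.86 in active animals, with a median of 7.31. K9, the highest active animal, stood apart from the 4 other SpD animals, and even K9 was 0.28 below the lowest winter animal. Rasl10a, a small GTPase of the Ras family, followed in q (1.1e-09) and ran from 7.55 to 8.27 in winter and 6.51 to 7.23 in active animals. Their season differences were 1.10 ± 0.07 and 1.06 ± 0.07. A SERPINB9-like gene, a relative of the granzyme B inhibitor that may share reads with its copies, was 0.97 ± 0.11 higher, and Bex5, of a family of small brain-expressed adaptor proteins, 0.92 ± 0.12.

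The remaining named increases of this kind were smaller and ran from 0.36 to 0.82. Stard10, a lipid transfer protein, was 0.82 ± 0.07 higher, with values of 11.52 to 12.19 in winter and 10.76 to 11.44 in active animals. Cib1, a calcium- and integrin-binding protein, was 0.73 ± 0.07 higher, and Cd63, a tetraspanin of lysosomes and secreted vesicles, 0.63 ± 0.06 higher. The others act in secretion, lipid binding, or RNA modification. Mgat4a, which branches N-linked sugars in the Golgi, was higher by 0.53, Kdelr3, which returns escaped proteins to the endoplasmic reticulum, by 0.47, Osbpl9, a sterol-binding protein, by 0.39, and Rpusd1, a pseudouridine synthase, by 0.36. The IBA difference was the smallest of the 4 for Cib1 (0.56 against 0.71 to 0.85) and Stard10 (0.57 against 0.83 to 0.99), although the F test among winter states was not passed for either (q = 0.26 and 0.085).

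Among the decreases without overlap between seasons, Aldh1a1, which oxidizes retinal to retinoic acid, was the largest of the genes with a symbol. It ran from 9.56 to 10.94 in winter animals, with a median of 10.28, and from 11.02 to 12.91 in active animals, with a median of 11.99. Winter levels fell below the active range in all 20 animals, by as little as the gap between 10.94 and 11.02. The difference of -1.70 ± 0.17 (q = 1.5e-07) was -1.79 in IBA, -1.33 in Ent, -1.76 in EAr, and -1.91 in LAr. Mei1, known as a meiotic gene, was -1.52 ± 0.15, with 7.37 to 9.07 in winter and 9.36 to 10.21 in active animals.

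Hgd and Acmsd are enzymes of amino acid breakdown. Hgd, homogentisate dioxygenase of the tyrosine pathway, was near the bottom of the measured scale in winter, at 5.87 to 6.30, and spread widely in active animals, at 6.37 to 8.86. The SD was 0.07 to 0.18 in the winter states, 0.77 in SA, and 0.90 in SpD. At such low values the rlog scale understates a fold, so the difference of -1.44 ± 0.18 (q = 2.3e-06) is given with that limit. Acmsd, which diverts a tryptophan intermediate away from NAD synthesis, ran from 8.89 to 10.56 in winter and from 10.57 to 11.74 in active animals. It was -1.36 ± 0.15 (q = 4.4e-07), with the largest difference in IBA (-1.82) and -1.15 to -1.25 in the other winter states.

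A further 6 named genes were lower in each winter animal. Gpc3, a cell-surface proteoglycan that restrains growth signals, was -1.03 ± 0.10, at 9.48 to 10.42 in winter and 10.57 to 11.25 in active animals. Prob1, a gene of little-known function, was -0.91 ± 0.09 and Tmem25, a membrane protein, -0.69 ± 0.09. Trpv4, a calcium channel gated by swelling and warmth, was -0.49 ± 0.08, with values of 10.80 to 11.70 in winter and a narrow 11.85 to 12.17 in active animals. Xpo7, a nuclear exportin, was -0.41 ± 0.05 and Bbs1, of the ciliary BBSome, -0.32 ± 0.04. Kdelr3 and Tmem25 missed the threshold in the fit of experiment 2 alone (q = 0.0015 and 0.0013).

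**Figure D2:**
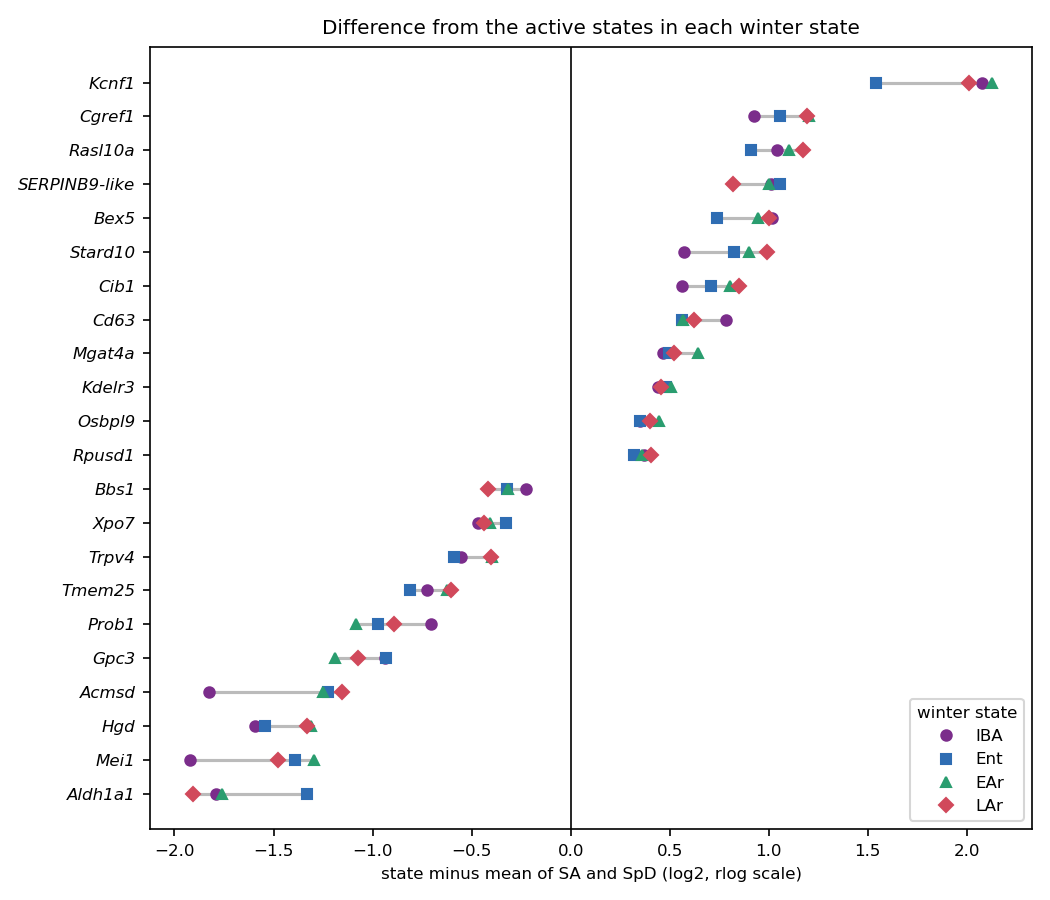
Fitted difference of each winter state from the mean of SA and SpD (horizontal axis, log2 on the rlog scale) for the 22 named genes without overlap between seasons, with 1 symbol per state and a gray line from the least to the largest. All 4 states lie on the same side of 0 for every gene, and Acmsd in IBA (-1.82) and Kcnf1 in Ent (1.54) sit farthest from their other states.

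Some shifts were nearly equal in size in the 4 states, whatever the body temperature. Among genes with a symbol that were shifted in all 4, Hes6, of the Hes family of transcription factors, varied least. It was 0.32 in each of IBA, Ent, EAr, and LAr, and its spread over states was 2.3% of the season difference. Nubp2, an iron-sulfur cluster assembly factor, was higher by 0.22 to 0.24, and Als2cl by 0.48 to 0.53. Nubp2 lies at the edge of the threshold (q = 0.0009) and lost its call when any of 24 single animals was left out. Als2cl differed mostly from SA (0.84) rather than from SpD (0.16), so it was not among the winter-high genes. On the lower side, Msmo1, a methyl sterol oxidase of cholesterol synthesis, varied by 4% of its difference (-0.91 to -0.95), Prr5l, a binding partner of mTORC2, by 5.8% (-0.57 to -0.61), and Fdx1, the ferredoxin that feeds electrons to mitochondrial P450 enzymes, by 8.5% (-0.69 to -0.75). The spread over states had a median of 46.7% of the season difference in the 159 winter-high genes and 45.5% in the 186 winter-low genes, so an equal shift was the exception. Mex3c, an RNA-binding ubiquitin ligase with the third lowest q of all genes (1.4e-09), is a case of an unequal shift. It was lower in all 4 states, at -0.18 in IBA, -0.60 in Ent, -0.87 in EAr, and -0.75 in LAr, and the F test was passed (q = 8.2e-06).

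Lists of genes with a shared role were then counted, and the lists with the most calls were metabolic. Of the 19 lists, amino acid breakdown had 23 of 59 measured members lower and none higher, or 39% against 5.29% of all genes. Glucose production, glycolysis, and the TCA cycle had 11 of 50 lower (22%) and 2 higher. Fatty acid oxidation and ketone bodies had members in both directions, with 7 of 42 lower and 6 higher. Shares of higher members were largest for small lists, at 4 of 20 clock genes and 2 of 10 measured cell division genes, against 4.43% of all genes.

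**Figure D3:**
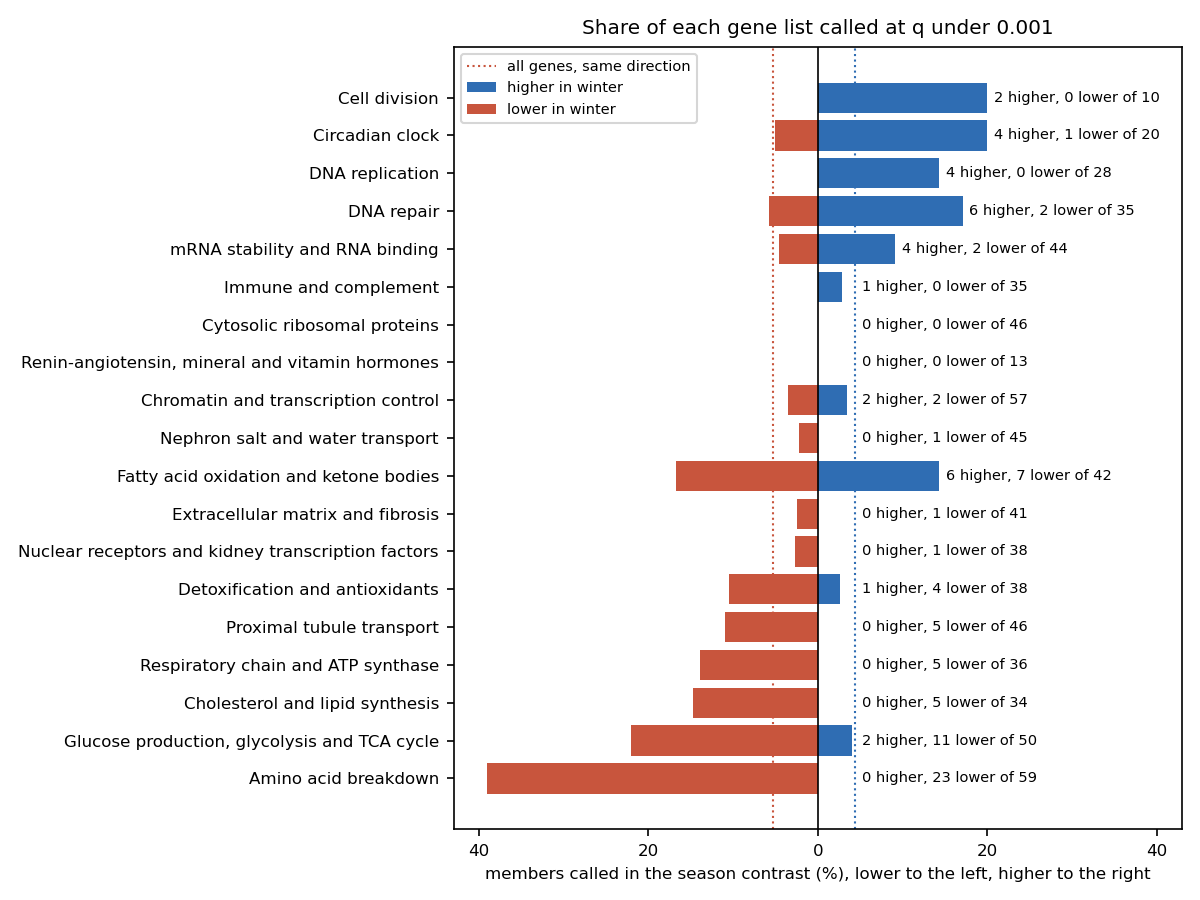
Share of the measured members of each of 19 gene lists that passed q under 0.001 in the season contrast (horizontal axis, percent), with members lower in winter to the left in red and higher to the right in blue, and the counts beside each bar. Dotted lines mark the shares among all genes, 5.29% lower and 4.43% higher, and amino acid breakdown reaches 39% on the lower side.

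Amino acid breakdown was lower in winter across several pathways. The median over the 59 members was -0.32, against 0.00024 over all genes, and it was -0.58 in IBA, -0.33 in Ent, -0.25 in EAr, and -0.22 in LAr. It was also larger against SA (-0.53) than against SpD (-0.15). Of the 23 lower genes, 13 were lower in all 4 winter states and 10 were winter-low genes. The branched-chain pathway had Ivd, isovaleryl-CoA dehydrogenase, at 11.71 to 12.50 in winter and 12.38 to 13.39 in active animals (-0.82 ± 0.07, q = 3.8e-08). The ranges of Ivd overlapped only slightly. In the same pathway Dbt, a core subunit of the branched-chain dehydrogenase, was -0.48 ± 0.05 and Acad8 -0.47 ± 0.05, and Bcat2, which removes the amino group first, was -0.60 ± 0.10. Aass, the first enzyme of lysine breakdown, was -0.85 ± 0.10. Gpt, alanine aminotransferase, ran from 10.24 to 10.96 in winter and from 10.87 to 11.62 in active animals (-0.73 ± 0.07, q = 5.5e-08).

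Enzymes that handle ammonia and the glutamate pool were also lower. Glul, glutamine synthetase, ran from 13.63 to 14.49 in winter and 14.17 to 15.82 in active animals (-0.87 ± 0.12, q = 7.8e-06). Glul missed the threshold in the fit of experiment 2 alone (q = 0.0013). Glud1, glutamate dehydrogenase, was -0.44 ± 0.07, but differed by -0.67 from SA and only -0.21 from SpD, and it missed the threshold with all 31 animals or with experiment 2 alone (highest q = 0.013). Cth, which releases cysteine in transsulfuration, was -0.51 ± 0.08 and kept its call with any animal left out, but lost it with all 31 animals (q = 0.029), with experiment 2 alone, and with each animal given equal weight.

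**Figure D4:**
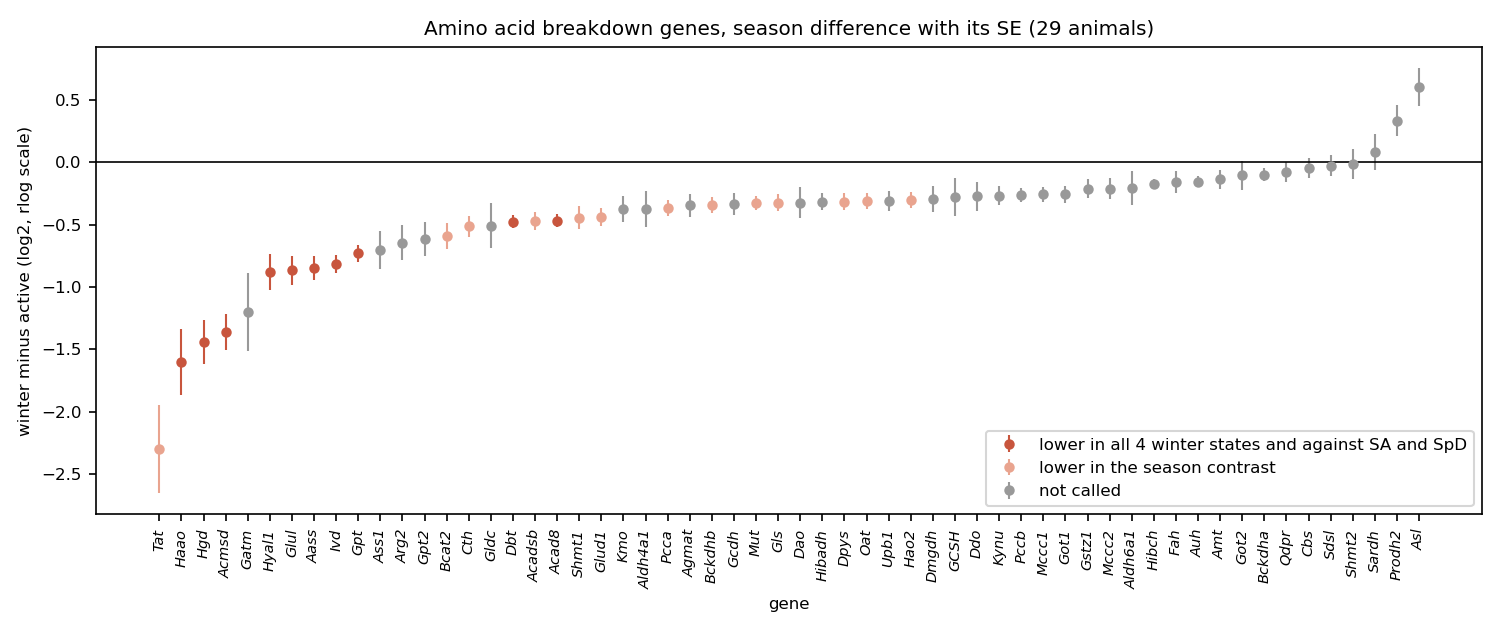
Season difference (winter minus active, vertical axis, log2 on the rlog scale) of 58 of the 59 measured members of the amino acid breakdown list, in order of size, with bars for the SE of the limma fit over 29 animals. Dark red marks the 10 winter-low genes, light red the other 13 called genes, and gray those that were not called, of which 3 (Sardh, Prodh2, and Asl) lie above 0.

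The largest decreases were in the tryptophan and tyrosine routes. In the tryptophan route, Haao, which makes the direct precursor of quinolinate, ran from 8.53 to 11.37 in winter and from 10.10 to 12.97 in active animals (-1.60 ± 0.27, q = 8.0e-05), beside Acmsd above. Kmo and Kynu, upstream of Haao, were at -0.37 and -0.27 and were not called (q = 0.0086 and 0.0084), but both passed without K130 (-0.47 and -0.33, q = 0.00037 and 0.00052). In the tyrosine route, Tat, the aminotransferase that opens it, was -2.30 ± 0.35 beside Hgd, but Tat was lower mainly against SA (-3.98) and its difference from SpD was -0.61. SA and SpD themselves differed in Tat (q = 0.0052). Haao and Tat missed the threshold in the fit of experiment 2 alone (q = 0.0033 and 0.0069), and Tat also with each animal given equal weight. Gstz1 and Fah, which follow Hgd, were at -0.21 and -0.16 and were not called (q = 0.031 and 0.18), although Gstz1 passed without K130 (-0.29, q = 0.0006). Some of the list's 23 lower members do something else. Hyal1 (-0.88 ± 0.14) degrades hyaluronan, Dpys (-0.32 ± 0.07) pyrimidines, and Glul makes an amino acid. Hyal1 missed the threshold in the fit of experiment 2 alone (q = 0.016).

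The amino acid result leaned on K130 in the direction of fewer calls. The mean over the 59 members was 11.38 to 11.98 in the 20 winter animals and 11.40 to 12.49 in the 9 active animals, where K130 was lowest at 11.40. The other 8 active animals began at 12.01, above each winter animal. Without K130, 36 members were lower, against 23 with it. Within experiment 1 the median of the list was -0.46 and 58 of 59 members were negative. Within experiment 2, for the same 3 states, it was -0.05 with 33 negative, K130 being 1 of only 2 active animals there, and -0.28 with 46 negative without K130. With all 6 states of experiment 2 the medians were -0.23 and, without K130, -0.34. Proximal tubule markers are also lowest in K130, and their part in these values was not tested.

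Enzymes that use ketone bodies were lower in winter, while several steps of fatty acid oxidation were higher. Oxct1, which activates acetoacetate for oxidation, ran from 11.89 to 12.92 in winter and from 12.76 to 14.35 in active animals (-1.11 ± 0.14, q = 2.9e-06). Bdh1, which interconverts the main ketone bodies, ran from 10.60 to 11.16 in winter and 11.01 to 12.27 in active animals. Bdh1 had nearly the same difference in all states, from -0.86 to -0.94, for a season difference of -0.90 ± 0.09 (q = 3.8e-07). The same 2 active animals, K9 and K140, lay within the winter range for both genes. Acat1, the thiolase next to them, was -0.35 ± 0.06 and varied among winter states (-0.19 in LAr to -0.57 in IBA, F test q = 0.046). Acat1 lost its season call in the fit of experiment 2 alone (q = 0.0084) and with each animal given equal weight.

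**Figure D5:**
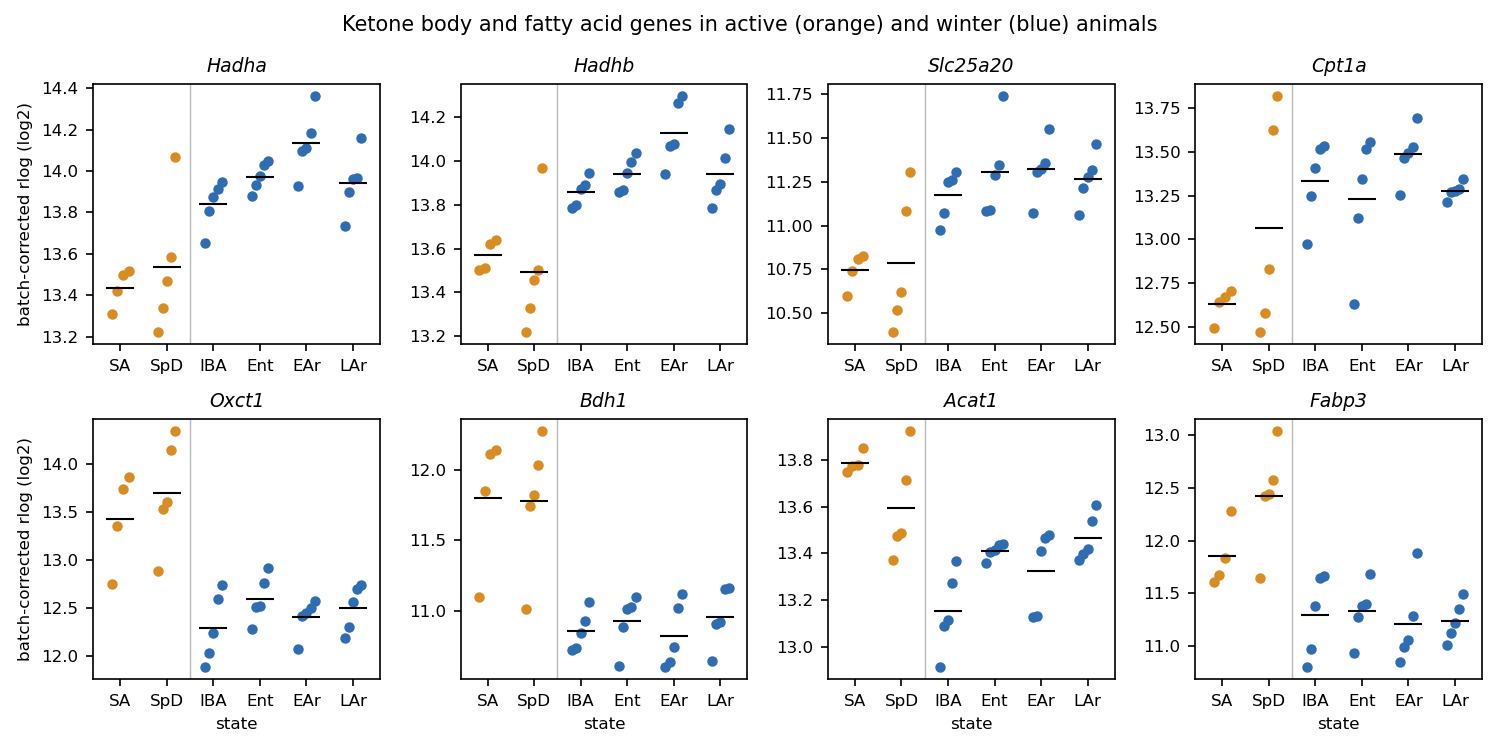
Batch-corrected rlog values (log2, vertical axis, which does not start at 0) in each of 29 animals by state (horizontal axis) for 8 genes of fatty acid and ketone body metabolism, with active animals in orange, winter animals in blue, and bars for state means. For Hadha and Hadhb each winter animal lies above all active animals but K9 (14.07 for Hadha), Slc25a20 and Cpt1a overlap more, and the 4 genes of the bottom row lie lower in winter.

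Long-chain fatty acid oxidation was higher in winter at several steps, though not throughout. Slc25a20, which carries acylcarnitines into mitochondria, was 0.50 ± 0.09 higher (10.97 to 11.74 in winter, 10.39 to 11.31 in active animals). The trifunctional protein subunits Hadha and Hadhb were 0.48 ± 0.07 and 0.44 ± 0.06 higher, with Hadha at 13.65 to 14.36 in winter and 13.22 to 14.07 in active animals. These 3 were winter-high genes, while Acadl (0.28) and Eci1 (0.34) were called for the season but did not pass in each state. Cpt1a, the entry step of mitochondria, was at 0.49 ± 0.13 and missed the threshold (q = 0.0045), but without K130 it was 0.58 and passed (q = 0.00052). K9, a SpD male, was the highest active animal for Hadha, and without it 10 members of the list were higher, against 6 with it. Acadm, Cpt2, Ppara, and Pdk4 were not called, at -0.21, -0.01, 0.11, and 0.17.

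Fatty acid uptake and activation went the other way. Fabp3, a fatty acid carrier of the cytosol, was -0.87 ± 0.10, with 10.80 to 11.88 in winter and 11.61 to 13.03 in active animals, and it differed more from SpD (-1.22) than from SA (-0.51). Acsl1, which activates long-chain fatty acids, was -0.56 ± 0.07. Lpl, lipoprotein lipase, was counted with lipid synthesis and was -1.37 ± 0.25 (q = 0.00018), but varied widely, at 8.86 to 11.27 in winter and 9.80 to 12.35 in active animals. Lpl did not pass when animals were weighted by their variance (q = 0.0015), and the part of fat tissue in its values was not tested.

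Most glucose and energy genes were not called, and those that were called were mostly lower by small amounts. The list of glucose production, glycolysis, and the TCA cycle had a median of -0.21, with Gk, glycerol kinase, at -0.63 ± 0.08, Tpi1 at -0.29 ± 0.05, and Pgk1 at -0.24 ± 0.04. Tpi1 and Gk were the only winter-low genes of the list. Ldha, lactate dehydrogenase A, was 0.40 ± 0.07 higher, mostly against SpD (0.62, and 0.18 against SA). The genes of glucose release were not called, with Pck1 at 0.40 ± 0.18 (q = 0.091), Fbp1 at 0.08, and G6pc at -0.30. The number of lower members was sensitive to single animals, at 17 without K130 and 6 or 7 without any of K139, K140, K141, K3, or K6, all of them active animals. In the respiratory chain list 5 of 36 were lower (13.9%, against 5.29% of all genes). Among them were Ndufv1 (-0.29 ± 0.05), UQCRC2 (-0.30), Atp5b (-0.27), and Ndufs8 (-0.22), against a list median of -0.18. No member of the respiratory chain list was called with all 31 animals, and the count was 3 without K140 or K141, 9 without K171, and 13 without K8.

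The list of cholesterol and lipid synthesis had 5 of 34 members lower (14.7%, against 5.29% of all genes) and none higher. Lpl, given above, was among these 5. Hmgcs1, the cytosolic synthase that feeds cholesterol synthesis, ran from 10.55 to 11.31 in winter and from 11.29 to 12.58 in active animals (-0.90 ± 0.11, q = 3.6e-06). Its ranges met at their edge, and it was even across states (-0.83 to -0.97). Msmo1 was -0.93 ± 0.13, described above for its evenness. Sqle, a monooxygenase of the same pathway, was at -0.57 and was not called (q = 0.016). The median over the list was -0.11. Without K140, the SA animal whose mean over the list (9.89) was the lowest of all 29, 9 members were lower.

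Of 46 transporters of the proximal tubule 5 were lower (10.9%, against 5.29% of all genes) and none higher, and the median over the list was -0.29. That median was -0.56 in IBA and -0.38 in Ent, but 0.01 in EAr and -0.09 in LAr. Against SA it was -0.44, and against SpD -0.02. Over IBA, Ent, and SpD it was -0.53 within experiment 1 and 0.30 within experiment 2, so the list as a whole had no steady winter decrease. Slc6a20, a proline and imino acid transporter, was -1.29 ± 0.19, at 6.94 to 8.79 in winter and 8.34 to 10.41 in active animals. Slc7a13, an aspartate and glutamate carrier of the straight tubule, was -1.29 ± 0.23, Slc22a13 -0.90 ± 0.15, and Slc16a9 -0.70 ± 0.10, of which Slc16a9 differed from SA (-1.29) and not from SpD (-0.11). Slc22a13 missed the threshold in the fit of experiment 2 alone (q = 0.0062). Slc34a1, the main sodium-phosphate transporter, was at -0.85 ± 0.19 and was not called (q = 0.0016), yet without K130 it was -1.08 ± 0.13 and passed (q = 1.8e-06). Without K130 the list had 11 lower members. Lrp2, the endocytic receptor megalin, was at 0.01 and the regulator Hnf4a at 0.12. Without K130 the proximal marker mean was 14.37 to 15.42 in active animals, against 14.05 to 15.17 in winter, and its part in these decreases was not tested.

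In the remaining nephron, 1 of 45 salt and water transport genes was lower, the anion exchanger Slc26a7 (-0.69 ± 0.13), which lost its call without K138 or K139. The water channels of the collecting duct, Aqp2 and Aqp3, were at -0.70 ± 0.18 and -0.87 ± 0.19 and missed the threshold (q = 0.0052 and 0.0012). Umod was at -0.55 (q = 0.028), and the urea transporter Slc14a2 at -1.28 ± 0.61 (q = 0.11), with a range of 6.11 to 12.24 over winter animals. None of 13 genes of the renin-angiotensin system and of mineral hormones was called. CYP27B1, which activates vitamin D, was at 0.72 ± 0.32, CYP24A1, which inactivates it, at -0.90 ± 0.35, and Vdr, its receptor, at -0.31. Kl, the Fgf23 coreceptor klotho, was at -0.46 (q = 0.024) and passed without K130 (-0.63, q = 0.00024). One of 38 nuclear receptors and kidney transcription factors was called, Rarb, the retinoic acid receptor beta, at -0.58 ± 0.09. Rarb missed the threshold in the fit of experiment 2 alone (q = 0.0063).

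Detoxification had 4 of 38 members lower (10.5%, against 5.29% of all genes) and 1 higher (2.63%, against 4.43%), and without K130 it had 9 lower. GSTA2, a glutathione transferase, was -2.18 ± 0.37 (q = 1.0e-04), but it ran from 7.53 to 10.88 in winter and from 8.84 to 13.25 in active animals and may share reads with its close copies. CYP27A1, a mitochondrial sterol hydroxylase that takes its electrons from Fdx1, was -0.94 ± 0.14, but missed the threshold in the fit of experiment 2 alone (q = 0.0028). The member that rose was Srxn1, sulfiredoxin, which restores oxidized peroxiredoxins, at 0.43 ± 0.06, with 11.56 to 12.40 in winter and 11.19 to 11.66 in active animals.

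A minority of DNA synthesis and repair genes was called, mostly higher and by small amounts. Of 28 replication genes measured, 4 were higher (14.3%, against 4.43% of all genes) and none lower, with a median of 0.13. Pola2 and Pole, polymerase subunits, were 0.34 ± 0.05 and 0.37 ± 0.06 higher, Mcm5 of the replicative helicase 0.30 ± 0.06, and Rfc5 of the clamp loader 0.22 ± 0.04. The sliding clamp itself, Pcna, was at -0.01. With all 31 animals 1 of the 4 calls was left, and 8 members were higher without K8. Mcm5 also lost its call without K130, K9, or K139. Only 10 of 40 cell division genes were in the table, of which Nuf2 (0.34) and Bub3 (0.17) were higher, but Nuf2 was lost without K139 and Bub3 without K140 or K84. In DNA repair 6 of 35 were higher (17.1%, against 4.43% of all genes) and 2 lower (5.71%, against 5.29%). Fanca, of the Fanconi anemia core complex, was 0.52 ± 0.06 higher, with 6.86 to 7.66 in winter and 6.49 to 7.18 in active animals, and Xrcc6, which binds broken DNA ends as Ku70, was 0.37 ± 0.06 higher in all 4 states alike (0.34 to 0.40). Lig4, which seals those ends, was lower by season (-0.43 ± 0.05) but varied with state, from 0.08 in IBA to -0.79 in EAr (F test q = 1.3e-06). Wrn was 0.27 higher and also varied (0.11 in IBA to 0.39 in EAr). Xrcc6 missed the threshold in the fit of experiment 2 alone (q = 0.0029).

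Among RNA-binding and mRNA stability genes, 4 of 44 were higher (9.09%, against 4.43% of all genes) and 2 lower (4.55%, against 5.29%). The lower share was thus near that of all genes. Rbm3, a cold-inducible RNA-binding protein, was 0.93 ± 0.11 higher (q = 2.1e-06), with 10.11 to 10.45 in SA, 10.13 to 11.46 in SpD, and 10.94 to 11.85 in winter animals. SA animals lay wholly below winter animals while SpD animals overlapped them, and SA and SpD differed (q = 0.044). IBA animals, although warm, were 0.73 above the active states. Its relative Cirbp was 0.49 ± 0.06 higher by season but 0.07 in IBA, against 0.58 to 0.73 in the colder states, and the F test was passed (q = 0.00085). Cnot10, of the CCR4-NOT deadenylase, was 0.26 ± 0.03 higher in all states (0.21 to 0.32), with 10.26 to 10.57 in winter and 10.10 to 10.30 in active animals. Smg5, of nonsense-mediated decay, was -0.42 ± 0.05 but 0.05 in IBA. Chromatin genes had 2 of 57 higher and 2 lower, or 3.51% each way, below the shares among all genes, so the list as a whole showed no shift. Ezh2, the methyltransferase of Polycomb complex 2, was 0.41 ± 0.05 higher, with 7.07 to 7.53 in winter and 6.53 to 7.07 in active animals, while its partner Eed was -0.21 ± 0.04 and at 0.09 in IBA. Smarcc1 was 0.27 higher, but lost its call without any of K138, K140, K141, K6, or K84, and Sirt3 was -0.24 and was lost without K139.

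The circadian clock list had 4 of 20 members higher and 1 lower. With each animal given equal weight and no state terms it had 1 higher and 0 lower, and in experiment 2 alone 4 lower. Bhlhe41, a repressor of the clock also called Dec2, was the winter-high gene among them, at 9.50 to 10.53 in winter and 8.65 to 9.81 in active animals (0.73 ± 0.10, q = 1.2e-05). For 3 of the other called members the F test among winter states was passed. Nr1d1, the repressor Rev-erb alpha, was 1.01 ± 0.18 higher by season, from 0.29 in IBA to 2.13 in LAr, and Ciart 0.74 ± 0.13, from -0.10 in IBA to 2.49 in LAr. Nfil3 was -0.55 ± 0.09 but 0.29 in LAr. Per3 was 0.59 ± 0.13 and lay at the threshold (q = 0.00095), lost with any of 23 left-out animals. The core clock genes Clock, Arntl, and Per2 were at -0.16, -0.54, and 0.10, and neither they nor Per1 were called.

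The remaining lists had few calls or none. None of 46 cytosolic ribosomal proteins was called, with a median of 0.13 and Rpl3 at 0.17. Of 35 immune and complement genes 1 was higher, Cxcl16 (0.65 ± 0.10), a chemokine that also acts as a scavenger receptor. Cxcl16 lost its call with all 31 animals (q = 0.010) and in experiment 2 alone, where 0 members of the list were higher and 3 lower. Of 41 matrix and fibrosis genes 1 was lower, Bgn, biglycan (-0.56 ± 0.11, q = 0.00059), which lost its call in 11 of the fits that left out 1 animal. Col1a1, at -0.64 ± 0.21, was not called (q = 0.019), nor were the smooth muscle genes Acta2 and Tagln (-0.52 and -0.54). The mean over the 8 stromal markers was 9.27 to 10.63 in winter and 9.80 to 10.88 in active animals, and its part in these differences was not tested.

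The season difference was also compared between sexes and between experiments. No gene passed q under 0.05 for a difference between females and males in limma, and 595 (4.63%) had an unadjusted p under 0.05. No gene passed for a difference between the experiments either, although 1965 (15.3%) had an unadjusted p under 0.05, and these tests rest on IBA, Ent, and SpD. Within both experiments the sign of the season difference was that of the pooled fit for 158 of the 159 winter-high and 185 of the 186 winter-low genes. These genes were chosen on the same animals, so this count describes them and is no independent check. Over all genes the sign agreed between experiments for 53.2%.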

How the data were processed

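Kidney RNA of 31 13-lined ground squirrels was sequenced as poly(A) libraries, with a TruSeq kit in experiment 1 and a Nugen Universal Plus kit in experiment 2. The deposited values are log2-scale rlog values: per the labels and methods the authors trimmed adaptors with cutadapt, set aside reads of the mitochondrial genome found by HISAT2, quantified the rest with Salmon on HiC_Itri_2 transcripts, normalized with DESeq2, filtered low genes, and removed the experiment effect with limma. Versions are not given in the sources used here. Batch removal had set the means of both experiments equal, and the fits below carry a term for experiment. Counts and depth cannot be recovered from these values, so no count test was run.

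Every gene was fitted with limma 3.58.1 (R 4.3.3, intensity trend) with terms for the 6 states, sex, and experiment in 29 animals. Season was the mean of the 4 winter states minus the mean of SA and SpD. Values of p were adjusted by Benjamini-Hochberg over 12863 genes, with q under 0.001 for season calls and q under 0.05 for each state. Differences are in log2 on the rlog scale with the SE of the fit. Replicates are separate animals. The fit was tested on simulated data.

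Gene lists were matched by exact symbol, so members named as copies ("like") were not counted. The members and lists were chosen with earlier results of these data known, so list counts are no independent evidence. Named genes were, of those without overlap between seasons, up to 12 per direction by size, up to 4 called members per list by q, the 3 most even genes per direction, the 3 lowest q, and members needed to say what a list did not do. Other called list members, those of the closing observations, and the animals singled out were chosen after their values were seen. Some list members are counted in their lists but not reported here. Of 161 named genes, 152 matched a symbol of the RefSeq annotation of assembly mIctTri1.hap1, which was used for names only since it is another build. Plots were drawn with matplotlib 3.10.9 (Python 3.11.15). Alternatives changed the animals, terms, variance prior, weights, filter, scaling, and threshold.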

Additional observations from a re-analysis of the deposited data

Results flagged for a closer look

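In 233 groups of values from named genes, 28 single values stood far from the rest of their group by Dixon's criterion. Chance meets it in about 1 in 20 independent groups. Most groups here were the same 9 active animals, SA and SpD together, so the 28 cannot be set against that share. Most of these values were from K130, a SpD male, among the 9 active animals. K130 had the lowest active value for the proximal tubule genes Slc34a1 (14.53), Lrp2 (14.47), Hnf4a (13.00), Fbp1 (13.75), Kl (12.52), and Vdr (11.12). It was also lowest for the amino acid enzymes Aass (12.53), Qdpr (12.35), Fah (12.31), Gstz1 (11.94), Acad8 (10.13), and Aspdh (9.22), for Hyal1 (9.69), for Acadm (12.27), and for the SERPINB9-like gene SERPINB9_like_gene24731 (8.22). The same animal was highest for Aqp2 (14.31), Slc26a7 (10.14), and Lgals3 (11.16).

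K9, another SpD male, was the highest active animal for Hadha (14.07), Acadl (13.53), and the CYP4A11-like gene CYP4A11_like_gene2138 (13.20), and the highest of 5 SpD animals for Cgref1 (7.86). Single values apart from the other active animals were Rpusd1 in K139 (7.94, lowest), Tmem25 in K139 (11.14, highest), Prob1 in K84 (11.66, highest), and Xrcc6 in K138 (9.74, lowest). Among the winter states, K154 was lowest of 5 EAr animals for Cgref1 (8.42) and K5 lowest of 5 Ent animals for Rbm3 (10.94).

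For 15 named genes the season was called but the 4 winter states differed in their distance from the active states, by limma's F test with Benjamini-Hochberg adjustment. The clearest were Ciart (q = 2.8e-08), high in LAr, and Lig4 (q = 1.3e-06), Smg5 (q = 7.3e-06), Mex3c (q = 8.2e-06), and Eed (q = 9.6e-06), in which IBA lay nearest to the active states or beyond them. Nfil3 (q = 1.9e-05) changed sign in LAr. Cirbp (q = 0.00085), Nr1d1 (q = 0.0016), Sirt3 (q = 0.0042), Gk (q = 0.014), Wrn (q = 0.022), Acadl (q = 0.025), LOC101961074 (q = 0.039), Rfc5 (q = 0.041), and Acat1 (q = 0.046) followed. LOC101961074, a gene without a symbol, was lower by season, with -1.24 in IBA, -1.95 in Ent, -2.40 in EAr, and -2.41 in LAr. For Sirt3, Gk, and Acat1 the IBA difference was the largest of the 4 states, at -0.51, -1.04, and -0.57.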

How the results depend on the processing

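No season difference of a named gene that was called changed sign under any alternative run. Over the fits with other animals, terms, variance priors, weights, filters, or scaling, 6060 of 6262 results for single named genes kept their call, 170 lost it, and 32 gained it. Counts were less stable. With all 31 animals, 104 genes were higher and 137 lower in all 4 winter states (191 and 245 with 29), 94 and 107 also passed against both active states (159 and 186), 46 list members were lower (70), 15 of them in amino acid breakdown (23), and 1177 genes varied among winter states (2066). Of the 201 genes that then passed each requirement, 197 were among the 345. The fit with each animal given equal weight had terms for season, sex, and experiment but none for the states. Differences among states therefore counted as spread between animals. In that fit 278 genes were higher and 291 lower by season (570 and 681), and 38 list members were lower, 14 of them in amino acid breakdown. Ciart (q = 0.13), Eed (q = 0.033), and Nfil3 (q = 0.025), which varied among the winter states, lost their calls. Variance weights per animal gave 348 higher and 413 lower genes in all 4 states and 108 lower list members. Experiment 2 alone gave 10 lower amino acid members, and 720 of its 1238 season calls were among the 1251. A threshold of q under 0.01 gave 1262 higher and 1380 lower genes, 57 higher and 147 lower list members, 38 lower in amino acid breakdown, and 775 genes that varied among winter states. The causes of these shifts were not tested, apart from the number of animals or the threshold that some of them set. In list counts, experiment 2 alone gave 13 higher fat and ketone members (6), 3 lower glucose members (11), and 9 lower matrix genes (1), and variance weights gave 17 lower respiratory members (5), 11 lower proximal transporters (5), and 8 lower detoxification members (4).

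Leaving out 1 animal at a time gave 366 (without K138) to 783 genes higher and 482 to 775 lower by season, 125 (without K104 or K155) to 272 higher and 167 to 357 lower in all 4 states, 112 to 221 and 134 to 266 when both active states were also required, 27 to 41 list members higher and 54 to 103 lower, 18 to 36 (without K130) in amino acid breakdown, and 110 to 118 of 161 named genes called (118 with all 29, but 97 with all 31, 96 with each animal given equal weight, and 81 in experiment 2 alone). Without K8, an Ent animal, 783 genes were higher. No term for experiment gave 486 genes that passed each requirement, of which 344 were among the 345. Season by sex gave 0 genes with 29 animals and with all 31. No paired analysis was possible because each number in the titles names a single animal and is shared by no other group. Depth is unknown, so how far low counts limit the small differences could not be measured, and genes below the authors' filter were not analysed here. The precision of each value rests on 4 or 5 animals per state.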

Other observations

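Outside the lists, further genes of tryptophan, tyrosine, and vitamin A metabolism were lower in winter. Ido2, which opens the tryptophan breakdown route, was -1.98 ± 0.14 (q = 1.8e-09), at 5.49 to 6.61 in winter and 6.04 to 9.13 in active animals, and was low enough in winter that the rlog scale understates the fold. It was -1.20 against SpD and -2.76 against SA. A pair of genes related to HPD, the step before Hgd in the tyrosine route, were lower by similar amounts in all 4 states. HPD_like_gene12594 was -2.88 ± 0.45 and HPD_containing -2.29 ± 0.37, and both may share reads with their copies and lost their call with all 31 animals or experiment 2 alone (highest q = 0.0062). Aspdh, an aspartate dehydrogenase homolog, was -0.99 ± 0.15. Bco1, which cleaves beta-carotene to retinal, was -0.96 ± 0.15, with -0.87 to -1.06 across states. Aspdh and Bco1 missed the threshold in the fit of experiment 2 alone (q = 0.012 and 0.011), as did Rarb above, while Aldh1a1 passed.

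Some genes of the lysosome, picked after their values were seen and not counted as a list, were higher in winter. Gusb and Sgsh, which degrade glycosaminoglycans, were higher by 0.50 ± 0.08 and 0.52 ± 0.09, Gnptab, which tags enzymes for the lysosome, by 0.40 ± 0.06, and Creg1 by 0.45 ± 0.06. Lgals3, galectin 3, was 0.59 ± 0.08 higher, at 11.11 to 12.12 in winter and 10.66 to 11.16 in active animals, and Lgals3 is also made by macrophages, whose list mean was 7.93 to 9.21 in winter and 7.84 to 8.78 in active animals. The part of macrophages was not tested. These 5 genes were winter-high genes, as was Cd63.

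Among single genes, the monocarboxylate transporter Slc16a11 was 1.14 ± 0.13 higher, the kinase Nek6 1.09 ± 0.15, and Dpp6, a potassium channel accessory subunit, 1.01 ± 0.11. Edn1, endothelin 1, was 0.74 ± 0.09 higher at 7.76 to 8.75 in winter against 7.22 to 7.87 in active animals, while most endothelial markers were lower. Fga, the fibrinogen alpha chain, was 0.82 ± 0.12 higher and Abca1, the cholesterol exporter, 0.66 ± 0.13 higher, but Abca1 lost its call without any of K138, K141, K3, or K84. The CYP4A11-like gene CYP4A11_like_gene2138, of a family that hydroxylates fatty acids, was 1.44 ± 0.23 higher and, without K9, 1.70 higher. On the lower side, GBA3, a cytosolic beta-glucosidase, was -1.86 ± 0.23, the complement gene C8a -1.46 ± 0.18, Serpind1, heparin cofactor II, -1.30 ± 0.19, and Mzb1, a gene of antibody-making cells, -1.14 ± 0.16. Cd79a, the only lymphocyte marker measured, was at -0.35, with 8.84 to 9.98 in winter and 7.85 to 10.41 in active animals (9.68 or more without K130), and the part of lymphocytes in the Mzb1 difference was not tested.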
